A study of Mus musculus with 4 samples.

Results

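The data described here are the single-nucleus RNA sequencing (snRNA-seq) counts of 10 neuropeptide genes in the lateral septum (LS) of the mouse. The genes were Sst, Nts, Penk, Pdyn, Tac1, Tac2, Npy, Cck, Crh and Cartpt. They were picked by symbol, each had 1 row in the count tables, and together they made up 10 of 32285 genes. The study compared the LS of C57J mice with that of mice whose immune system differs, and each of its 4 libraries held nuclei pooled from 3 male mice aged 6 to 8 weeks. C57BL/6JNifdc mice (C57J) gave 2 libraries, C57J 1 and C57J 2. BALB/c nude mice (nude) gave 1 library, and BALB/c mice gave 1. Nude mice lack Foxn1 on a BALB/c background and so lack a working thymus, while the BALB/c mice carry no engineered allele, and no group received a treatment. C57J 1 was of batch 1 and the other 3 libraries were of batch 2, as labelled. Foxn1 deficiency was represented by 1 library of pooled mice, and the BALB/c background is shared by nude and BALB/c mice, so strain and immune state cannot be told apart in the comparison with C57J.

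Neuropeptides are made as long precursors that are cut at pairs of basic residues, packed into dense core vesicles and released to act on G protein-coupled receptors, often more slowly and over a longer distance than glutamate or GABA. LS neurons are GABAergic, receive hippocampal input and project to the hypothalamus. Several groups of them are known for the peptides they make, among them somatostatin, neurotensin and enkephalin, and peptide release in the septum has been tied to anxiety, fear and feeding.

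The peptide-coding stretches of the genes on which the results turn are printed to show what the counted mRNAs encode. They were read from GENCODE vM21 transcripts (GRCm38), capitals mark the codons of the peptide, and lower case marks the flanking codons, which include the basic residues at which the precursor is cut. The tachykinin stretches end with a glycine codon before the basic pair, which gives the peptide its amide end.
Sst, somatostatin-14, chr16:23889732-23889779, minus strand: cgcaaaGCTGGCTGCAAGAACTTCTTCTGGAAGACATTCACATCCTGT
Nts, neurotensin, chr10:102482349-102482399, minus strand: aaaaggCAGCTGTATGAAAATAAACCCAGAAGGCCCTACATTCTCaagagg
Penk, first Met-enkephalin copy, chr4:4134328-4134354, minus strand: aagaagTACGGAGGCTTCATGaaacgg
Penk, Leu-enkephalin, chr4:4133935-4133961, minus strand: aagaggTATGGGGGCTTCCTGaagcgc
Pdyn, first Leu-enkephalin core, chr2:129688232-129688258, minus strand: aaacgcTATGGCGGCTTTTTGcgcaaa
Tac1, substance P, chr6:7556726-7556773, plus strand: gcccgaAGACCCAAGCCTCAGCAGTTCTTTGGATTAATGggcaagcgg
Tac1, neurokinin A, chromosome 6, plus strand, across an intron: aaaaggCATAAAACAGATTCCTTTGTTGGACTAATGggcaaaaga
Tac2, neurokinin B, chromosome 10, plus strand, across an intron: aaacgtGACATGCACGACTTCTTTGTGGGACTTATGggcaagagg

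The opioid core, which is tyrosine, glycine, glycine and phenylalanine, was found 7 times in the coding sequence of Penk, 6 times with methionine and 1 time with leucine after it. It was found 3 times in that of Pdyn, each time with leucine. The tachykinin ending was found 2 times in Tac1 and 1 time in Tac2, and neither core was found in the other 6 genes. Sst spans 1386 bases and Crh 1996, and the longest, Pdyn, spans 13280 bases, longer than 51.8% of the genes in the table. Sst, at chr16:23889573-23890958 on the minus strand, has 2 exons and 116 codons, and 9.28% of genes span less. Nts is at chr10:102481756-102490486 (minus strand, 4 exons), Penk at chr4:4133531-4138819 (minus, 2 exons), Pdyn at chr2:129686565-129699844 (minus, 4 exons) and Tac1 at chr6:7554879-7565834 (plus, 7 exons). Tac2 is at chr10:127724478-127731768 (plus, 8 exons), Npy at chr6:49822710-49829507 (plus, 4 exons), Cck at chr9:121489824-121495694 (minus, 4 exons), Crh at chr3:19693401-19695396 (minus, 2 exons) and Cartpt at chr13:99898489-99901091 (minus, 3 exons). Each gene below is compared with itself across nuclei and libraries, not with the level of another gene.

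The count tables held 12558 to 17025 barcodes and 72912922 to 125998527 unique molecular identifiers (UMIs) a library. After the quality limits and removal of predicted doublets, 10913 to 13075 nuclei a library were kept, and BALB/c was the deepest with a median of 8360 UMIs a nucleus against 4083 to 5402 in the other 3. Pairs of libraries shared 29 to 63 barcodes, at most 0.478% of the smaller library. Clustering without the 10 genes gave 31138 neuronal nuclei and 4 glial classes, namely 6654 astrocyte-like, 5413 oligodendrocyte-like, 1952 oligodendrocyte precursor-like (OPC) and 1357 microglia-like nuclei, called by these names without "like" below. Of the neurons, 18896 nuclei in 20 clusters were LS-like (LS neurons below), with Trpc4, Dgkg, Homer2, Ptpn3 and Ano2 all detected in every library and their summed level between 2482 and 2531 CPM (the gene's UMIs scaled to a common total of UMIs in each library and population). The other 12242 neurons fell into 27 types, N1 to N27. LS clusters and unnamed types carry a number and 2 leading genes that are not among the 10, as in LS6 Tafa1/Kynu.

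Of the 10 genes, only Sst and Nts had most of their neuronal UMIs in LS neurons by a margin over the LS share of nuclei, which was 60.7%. LS neurons held 70.2% of the 9278 neuronal Sst UMIs and 75.7% of the 7146 Nts UMIs. LS nuclei were deeper, with a median of 7870 UMIs against 6302 in other neurons, which raises their share of UMIs. In CPM, Sst was at 40.7, 33.2, 38.15 and 42.1 in LS neurons of C57J 1, C57J 2, nude and BALB/c. In all neurons it was at 37.5, 31.7, 36.7 and 37.6. Nts was at 33.5, 26.3, 27.9 and 38.8 CPM in LS neurons against 29.0, 23.25, 24.6 and 32.1 in all neurons. The LS share of the other 8 genes was below that of the nuclei, from 27.5% for Tac1 and 27.5% for Tac2 to 53.8% for Cartpt. Within LS neurons, 1 cluster recurred: LS6 Tafa1/Kynu had the highest level of any LS cluster for Sst, Nts, Penk, Crh and Cartpt.

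**Figure D1:**
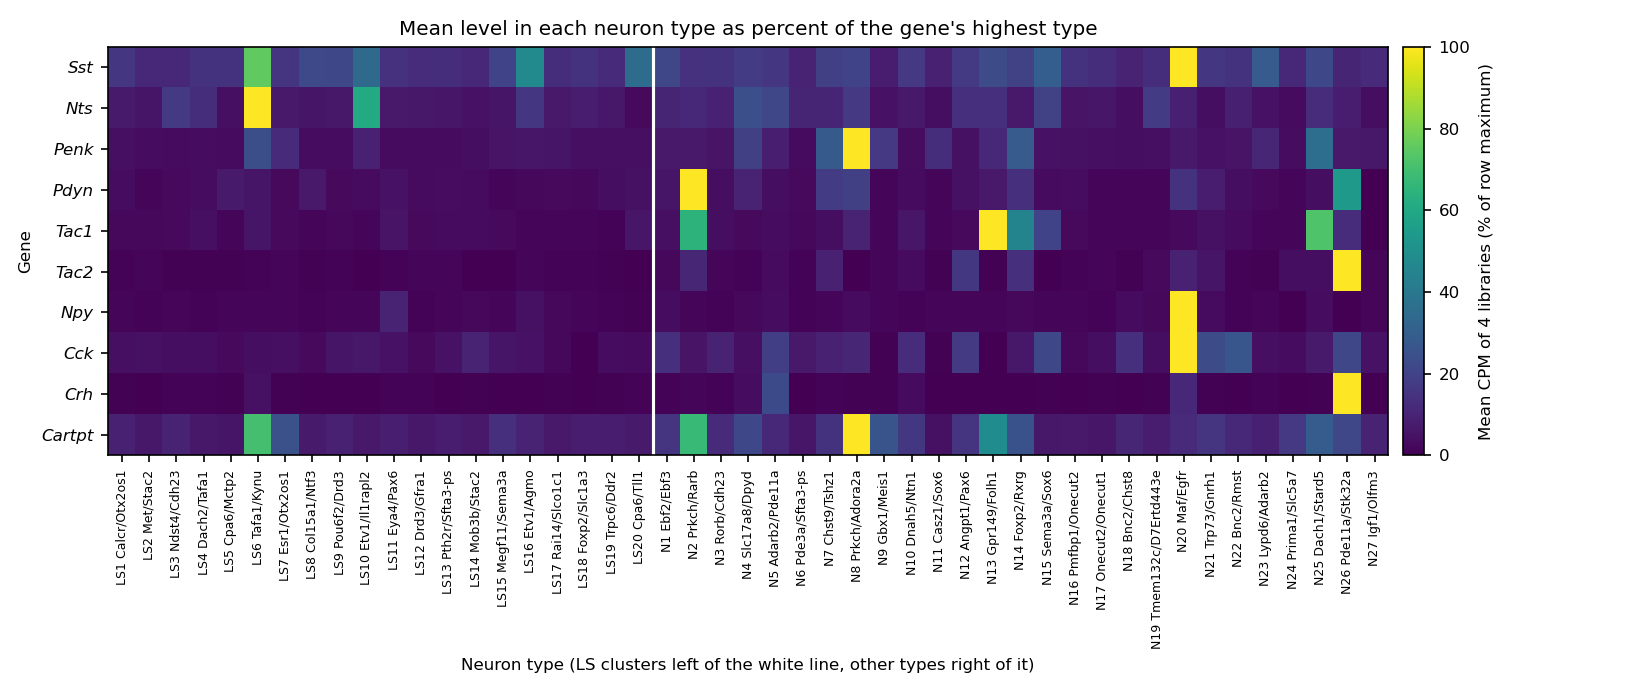
Mean level of each gene (rows) in each of the 47 neuron types (columns), as a percent of the gene's highest type, from the mean CPM of 4 libraries. LS6 Tafa1/Kynu is bright for Sst, Nts and Cartpt, N8 Prkch/Adora2a for Penk and Cartpt, N2 Prkch/Rarb for Pdyn, N20 Maf/Egfr for Sst, Npy and Cck, and N26 Pde11a/Stk32a for Tac2 and Crh.

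Somatostatin, an inhibitory peptide that acts on Gi-coupled receptors, was counted in most neuron types at a low level and in a few at a high one. Sst in LS6 Tafa1/Kynu was at 136, 104, 122 and 174 CPM in C57J 1, C57J 2, nude and BALB/c. In LS16 Etv1/Agmo it was at 97.1, 52.0, 60.9 and 127 CPM. The 2 LS clusters overlapped in range, and both stood above the median of all 47 types, 26.3 CPM. The highest mean, 178 CPM, was that of N20 Maf/Egfr, a type of 303 Lhx6 GABA-like nuclei (inhibitory neurons). However, Sst there ran from 114, 102 and 134 CPM in the first 3 libraries to 360 CPM in BALB/c. N20 was the highest type in 2 of 4 libraries, so the order of N20 and LS6 depended on the library. In nuclei thinned to 1000 UMIs, Sst was detected in 12.8% of LS6 nuclei, in 4.01% of all LS nuclei (exact 95% interval, 3.73% to 4.30%) and in 6.56% of oligodendrocytes, whose median depth before thinning was 2382 UMIs against 7870 in LS neurons. Unthinned, the shares were 50.9%, 22.2% and 15.2%. By the thinned share, Sst in LS neurons as a whole was not above oligodendrocytes, while LS6 was. Like CPM, this share weighs free RNA more in shallow nuclei, so it cannot place LS neurons as a whole against that background.

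Free RNA, released from broken cells and captured with every nucleus, is the reason for that check, and oligodendrocytes, which are not known for somatostatin, served to measure it. Counted per nucleus rather than per UMI, the glial classes were alike: Sst was at 0.126 to 0.225 UMIs a nucleus over 4 glial classes and 4 libraries. LS neurons had 0.352, 0.234, 0.268 and 0.573 Sst UMIs a nucleus in C57J 1, C57J 2, nude and BALB/c, more than every glial class of the same library. LS6 had 1.19, 0.777, 0.934 and 2.66. Expressed as a share, the UMIs of an oligodendrocyte nucleus came to 35.0% to 57.5% of those of an LS nucleus for Sst, and to 7.54% to 16.5% of those of an LS6 nucleus. A level in CPM weighs this background more in shallow nuclei: by CPM, none of the 47 types was above all 4 glial classes in every library for Sst, whereas 12 types were by UMIs per nucleus, 9 of them LS clusters.

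**Figure D2:**
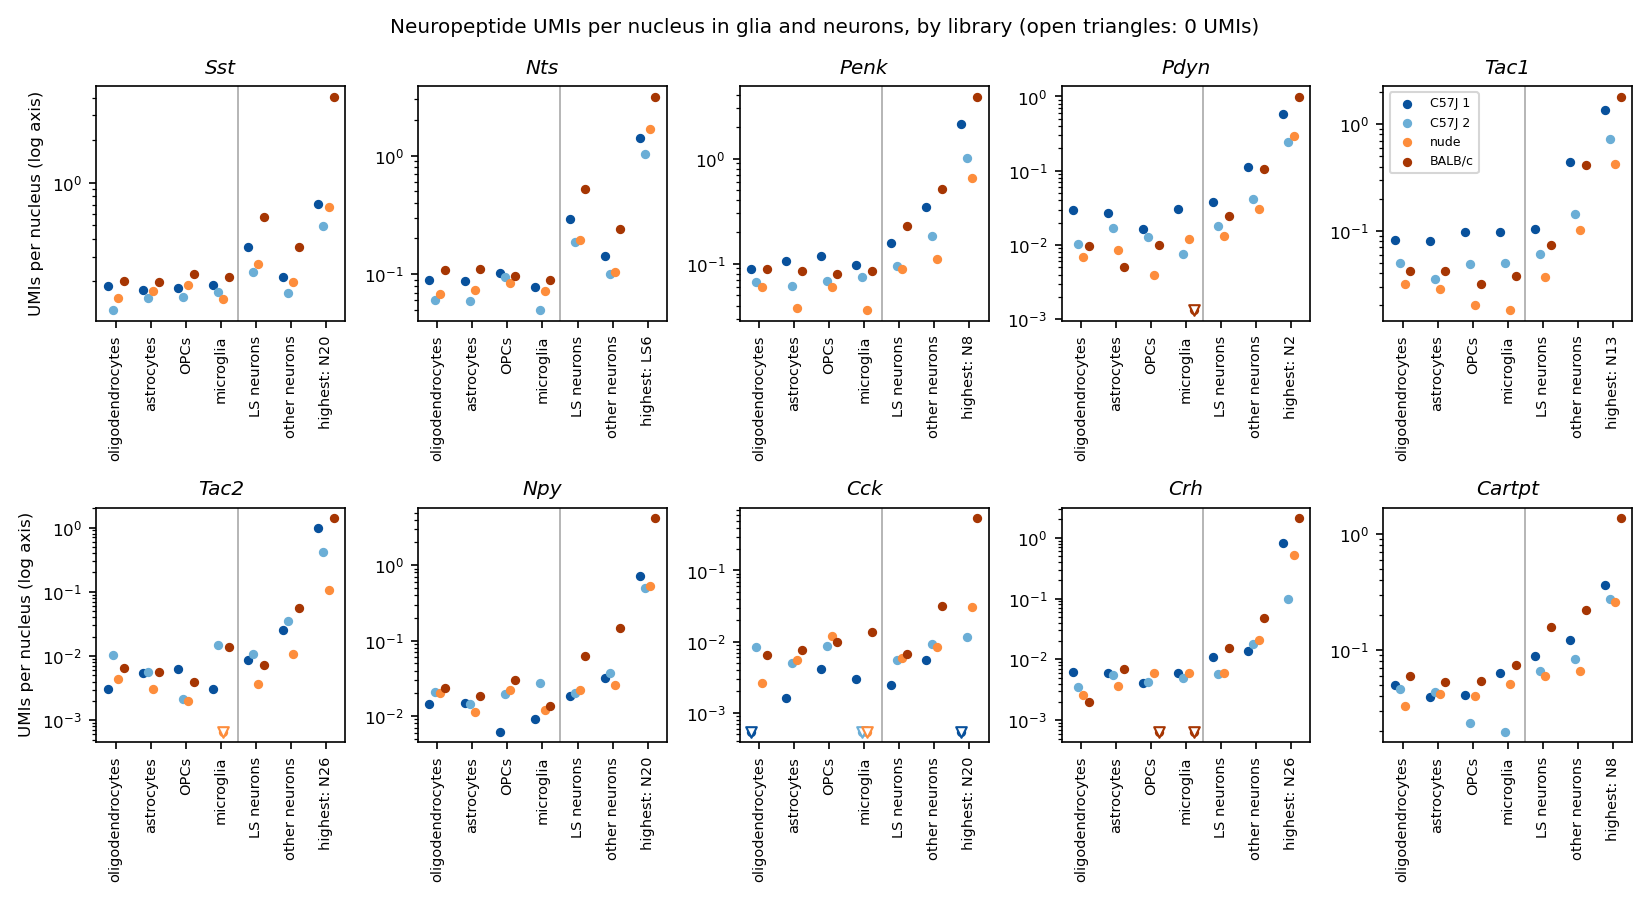
UMIs per nucleus (log axis) of each gene in 4 glial classes, LS neurons, other neurons and the gene's highest neuron type, with 1 point per library and open triangles at the bottom for 0 UMIs. The glial points of Sst lie between 0.126 and 0.225, and the highest type of each gene lies above the glial points of the same library except for Cck in C57J 1, where N20 held 0 UMIs.

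Neurotensin, a peptide of 13 residues that acts on Ntsr1 and Ntsr2 and is known to modulate dopamine signalling and feeding, was the gene most restricted to a pair of LS clusters. Nts in LS6 Tafa1/Kynu was at 161, 137, 219 and 205 CPM in C57J 1, C57J 2, nude and BALB/c. In LS10 Etv1/Il1rapl2 it was at 127, 101, 68.4 and 146 CPM. The ranges of LS6 and LS10 overlapped, but LS6 was the highest type in each of the 4 libraries. LS10 did not overlap with the next type, N4 Slc17a8/Dpyd, at 27.2 to 57.4 CPM. LS6, with 3.90% of neuronal nuclei, held 30.25% of neuronal Nts UMIs. Nts was detected in 14.4% of LS6 nuclei and 9.55% of LS10 nuclei thinned to 1000 UMIs, against 3.23% of oligodendrocytes. Both clusters were above all glial classes in every library also by CPM, which no LS cluster was for Sst.

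Whether the Sst of LS6 and its Nts lay in the same nuclei was asked of LS6 nuclei thinned to 1000 UMIs. Of 1214 nuclei, 30 held both, where 22.8 were expected if the 2 were detected independently, a ratio of 1.32 (95% interval, 0.889 to 1.88). Nts and Penk were found together in 8 nuclei where 10.2 were expected, a ratio of 0.785 (0.339 to 1.55). In N2 Prkch/Rarb, Pdyn and Tac1 were found together in 13 nuclei where 13.2 were expected (0.983, 0.524 to 1.68). All 3 intervals include 1, so neither more nor less co-detection than under independence was detectable at this depth. The genes with levels most like those of Nts across the 47 types were Junb and Fos, immediate early genes, with Pearson r = 0.67 each, and 0.59 and 0.54 without LS6. For Sst they were Etv1, a transcription factor, with r = 0.61, and Fam107b with r = 0.54. These correlations describe types drawn from the same 4 libraries.

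The region upstream of the start of transcription was searched. Of the genes highest in LS6 among LS clusters, Sst, Nts and Cartpt could be searched, and Penk and Crh could not. The windows were the 250 bases before the RefSeq start (GRCm38.p6), both strands were read, and 8 of the 10 genes had an entry, Penk and Crh being the others. TGACGTCA, the cAMP response element, occurs in 1.55% of 32851 such windows, and TGANTCA, with any base at N, in 6.75%. TGANTCA takes in the AP-1 element bound by Fos and Jun proteins but is looser, so 6.75% is not the share of that element alone. TGACGTCA was found in Sst, 48 bases before the start, and in Cartpt, 112 bases before it. TGANTCA was found in Nts alone, 207 bases before the start. The GENCODE spans of Sst and Cartpt given above begin further upstream than the RefSeq starts used here, so that both TGACGTCA windows lie inside those spans. The windows of 30 bases around them show the motif in capitals, and a match is a description of letters, not of binding.
Sst, chr16:23890874-23890903, minus strand: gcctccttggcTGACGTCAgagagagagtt
Cartpt, chr13:99900777-99900806, minus strand: ccggcgggcatTGACGTCAaacggcagcgg
Nts, chr10:102490607-102490636, minus strand: aactctttctgTGAGTCAgaaatcctgagc

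The opioid precursor genes were highest outside the LS clusters. Penk encodes the enkephalins, ligands of the delta and mu opioid receptors. It was highest in N8 Prkch/Adora2a, 588 Drd2 striatal-like nuclei, at 350.5, 213, 134 and 373 CPM in C57J 1, C57J 2, nude and BALB/c. N8 was the highest type in each library and was followed by N25 Dach1/Stard5, a second Drd2 striatal-like type of 122 nuclei, at 55.8 to 145 CPM, with overlapping ranges. Penk is a textbook marker of indirect-pathway striatal neurons, and the genes most like it were Adora2a (r = 0.71 across 47 types), a marker of the same neurons, and Cartpt (r = 0.70). Thinned to 1000 UMIs, 24.8% of N8 nuclei held Penk against 3.15% of oligodendrocytes. In LS neurons, Penk was highest in LS6 Tafa1/Kynu, at 60.8, 48.6, 67.3 and 79.5 CPM, the fifth of 47 types. In LS neurons as a whole it was at 18.05, 13.55, 12.6 and 16.9 CPM, and oligodendrocytes had 38.7% to 69.3% as many Penk UMIs a nucleus as LS neurons.

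Pdyn encodes the dynorphins, ligands of the kappa opioid receptor. It was highest in N2 Prkch/Rarb, 1002 Drd1 striatal-like nuclei, at 93.1, 45.7, 59.4 and 98.8 CPM, and this type was the highest in each library. N2 held 39.7% of neuronal Pdyn UMIs in 3.22% of neuronal nuclei. The second type, N26 Pde11a/Stk32a, ranged from 0 to 80.7 CPM on at most 10 UMIs a library. Wfs1 (r = 0.71) and Mark2 (r = 0.70) were most like Pdyn. No LS cluster exceeded a mean of 5.50 CPM, that of LS5 Cpa6/Mctp2, and LS neurons held 72 to 185 Pdyn UMIs a library.

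The tachykinin genes were likewise highest outside the LS clusters, and in different types from each other. Tac1 encodes substance P and neurokinin A, ligands of Tacr1 and Tacr2, and marks direct-pathway striatal neurons. It was highest in N13 Gpr149/Folh1, a type without a name from its markers, at 412, 283, 160 and 346 CPM in C57J 1, C57J 2, nude and BALB/c. N25 Dach1/Stard5 (92.9 to 399 CPM), N2 Prkch/Rarb (138 to 287.5 CPM) and N14 Foxp2/Rxrg (86.2 to 177 CPM) followed, and each overlapped with its neighbour in this order. N14 did not overlap with the next type, N15 Sema3a/Sox6. Of the 429 nuclei of N13, 318 came from C57J 1, where it made up 3.74% of neurons against 0.384% to 0.681% in the other 3 libraries. The 3 types named striatal-like, N2, N8 and N25, together were 8.93%, 5.38%, 2.98% and 4.47% of neurons in C57J 1, C57J 2, nude and BALB/c. N13 and N14 took no name and are not in this share. On the general striatal markers, scored relative to the highest type, N13 scored 0.404, N14 0.807 and N25 0.771. On the Drd1 striatal markers N13 scored 0.644 and N2 0.49. N14 held 220, 95, 60 and 51 nuclei in the same order of libraries. The genes most like Tac1 were Mprip (r = 0.78) and Gng7 (r = 0.77), the latter a G protein subunit of striatal neurons. Among LS clusters the highest mean was 18.0 CPM, in LS20 Cpa6/Tll1, and LS6 was next in rank with 17.2 CPM.

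Tac2 encodes neurokinin B, the ligand of Tacr3. It was highest in N26 Pde11a/Stk32a at 161.5, 67.3, 17.95 and 170 CPM, which rested on 12, 21, 2 and 14 UMIs in a type of 92 nuclei. In LS neurons it was at 1.015, 1.54, 0.520 and 0.526 CPM on 20 to 50 UMIs a library. LS neurons were not above the glial classes in every library for Tac2, Npy, Cck or Crh on either scale.

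Npy, a peptide of inhibitory interneurons that acts on Npy1r, Npy2r and Npy5r, was above all glial classes in every library by CPM in 1 type of 47. In N20 Maf/Egfr it was at 114, 102, 103 and 373 CPM. The next type, LS11 Eya4/Pax6, was at 9.97, 9.92, 13.6 and 36.7 CPM, with no overlap with N20. N20 held 34.45% of neuronal Npy UMIs in 0.973% of neuronal nuclei. BALB/c gave 286 Npy UMIs in N20, against 59, 43 and 34 in the other 3 libraries. The likeness of Npy to Vip (r = 0.77) and Igfbp4 (r = 0.70) rested on N20, since without it r fell to 0.11 and 0.17. Cck, made by cortical and other interneurons, was also highest in N20, at a mean of 14.2 CPM, but 37 of the 40 UMIs behind it were from BALB/c, and N20 was its highest type in 1 library only. Cck had 248 UMIs in all neurons, the fewest of the 10, and in LS neurons it was at 0.283 to 0.833 CPM.

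Crh, the corticotropin-releasing hormone that starts the stress axis, was counted 459 times in neurons. It was highest in N26 Pde11a/Stk32a at 135, 16.02, 89.8 and 254.5 CPM on 5 to 21 UMIs a library, and next in N5 Adarb2/Pde11a at 27.2, 15.3, 19.96 and 48.9 CPM on 18 to 44 UMIs. N26 was the highest type in each library, and both types were above all glial classes in every library. LS6 Tafa1/Kynu had the highest Crh level among LS clusters, at 7.03, 1.44, 4.12 and 9.64 CPM. Crh levels were most like those of Gtf3c3 (r = 0.73) and Stk32a (r = 0.63), and r was 0.48 and 0.44 without N26.

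Cartpt encodes CART, a peptide known for its actions on feeding and reward. It was highest in N8 Prkch/Adora2a at 59.7, 57.8, 52.8 and 131 CPM. LS6 Tafa1/Kynu followed at 49.8, 43.8, 43.9 and 75.5 CPM and N2 Prkch/Rarb at 46.7, 32.65, 61.5 and 62.5 CPM. These 3 types overlapped, and the highest type was the same in 2 libraries only. LS6 was the only LS cluster in which Cartpt was above every glial class in every library by CPM. Thinned to 1000 UMIs, 4.70% of LS6 nuclei held Cartpt against 1.95% of oligodendrocytes. Ppp1r2 (r = 0.77) and Elovl5 (r = 0.74) were most like it, and of the 45 pairs of the 10 genes, Penk and Cartpt were the most alike across types.

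Nuclei with at least 5 UMIs of a gene, called rich here, set the types apart from free RNA more sharply, because 1 such nucleus was found among 15376 glial nuclei for Sst and 0 for the other 9 genes (0 of 15376 allows a share of up to 0.0195%). Of 240 Nts-rich neurons, 228 were LS neurons, 144 of them in LS6 and 69 in LS10. Of 178 Sst-rich neurons, 151 were LS neurons, with 92 in LS6, 22 in LS16 and 20 in LS10. The opioid and tachykinin genes differed from these: of 151 Penk-rich neurons 57 were in N8 and 43 in LS6, and of 151 Tac1-rich neurons 72 were in N2 and 11 in LS neurons. Of 71 Cartpt-rich neurons, 43 were in LS6 and 11 in N8, and 19 of 24 Npy-rich neurons were in N20. Pdyn had 12 rich neurons, Crh 9, Tac2 5 and Cck 2. A fixed number of UMIs is reached more often in deep nuclei, and 111 of the 178 Sst-rich neurons came from BALB/c, the deepest library, against 40, 10 and 17 from C57J 1, C57J 2 and nude. These counts therefore place the nuclei among types and do not compare libraries.

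**Figure D3:**
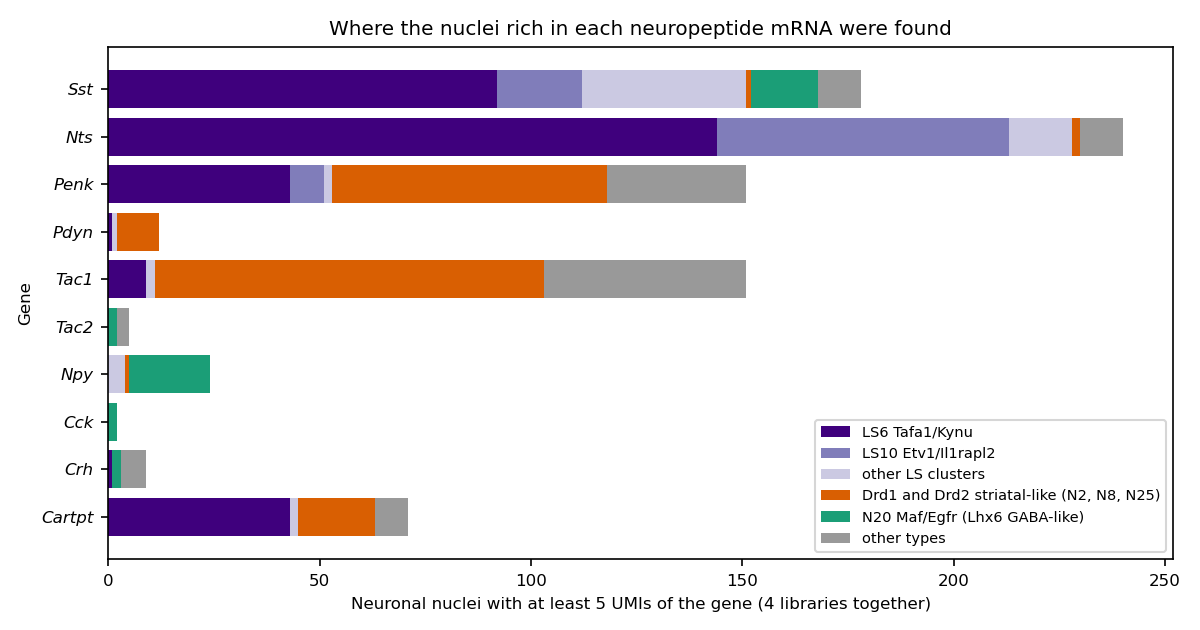
Number of neuronal nuclei with at least 5 UMIs of each gene over the 4 libraries (horizontal axis), with bar segments for the type in which they were found. LS6 Tafa1/Kynu takes 144 of 240 Nts-rich and 92 of 178 Sst-rich nuclei, and the striatal-like types take most of the Tac1-rich and Pdyn-rich ones.

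The strain background was compared with the study's grouping, nude and BALB/c together against C57J. The study tested nuclei with a rank-sum test, whereas here UMIs summed per library were tested (edgeR quasi-likelihood test, 2 libraries against 2, Benjamini-Hochberg adjustment over all genes, called at adjusted p below 0.05 and a log2 fold change above 0.5 in size). In bulk sums of this kind, fewer nuclei with a peptide mRNA and less mRNA per nucleus cannot be told apart. Within the groups, the C57J libraries differ in batch, and nude and BALB/c differ in Foxn1, so the spread used by the test includes both. None of the 10 genes was called. In all neurons, 0 of 10 passed, where 1.79% of 19621 genes did. At an unadjusted p below 0.05 were 0 of 10, against 2768 of the 19621 genes (edgeR). DESeq2 called 0 too, where it called 755 of 20892 genes. It had 1 of the 10 at an unadjusted p below 0.05, against 2257 of all genes. In LS neurons, 0 of 10 passed, where 2.14% of 18356 genes did. At an unadjusted p below 0.05 were 3 of 10, against 2669 of the 18356 genes (edgeR). DESeq2 called 1, Tac1 (adjusted p = 0.00909), where it called 645 of 19255 genes. The self-test recovered 74% of simulated log2 changes of 1 and 97% of log2 changes of 2 in LS neurons, and 65% and 98% in all neurons. It changed only genes above a minimum mean UMI count. Tac2, Cck and Crh did not reach that count in LS neurons, so the rates do not cover them there.

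The 2 leading LS peptide genes, Sst and Nts, differed by less than the spread between libraries. Sst in LS neurons was at 40.7 and 33.2 CPM in C57J 1 and C57J 2, and at 38.15 and 42.1 CPM in nude and BALB/c. The backgrounds overlapped, and the log2 fold change was 0.14 ± 0.14 (SE; edgeR, adjusted p = 0.722). Nts was at 33.5 and 26.3 against 27.9 and 38.8 CPM, also overlapping, with a log2 fold change of 0.18 ± 0.20 (edgeR, adjusted p = 0.762). Penk (-0.08 ± 0.21), Cartpt (0.08 ± 0.20), Crh (-0.02 ± 0.36) and Cck (0.37 ± 0.53) overlapped as well, with edgeR adjusted p between 0.826 and 0.992.

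Pdyn, Tac1 and Tac2 lay lower in the 2 libraries of the BALB/c background than in either C57J library, and Npy lay higher, but none passed the test. The share of all genes whose backgrounds did not overlap was not counted, so this separation has no background to be read against. Tac1 in LS neurons was at 12.01 and 8.69 CPM in C57J and at 5.26 and 5.45 CPM in nude and BALB/c, a log2 fold change of -0.93 ± 0.21 (edgeR, adjusted p = 0.101). Pdyn was at 4.37 and 2.56 against 1.87 and 1.78 CPM (-0.91 ± 0.32, edgeR, adjusted p = 0.259). Tac2 was at 1.015 and 1.54 against 0.520 and 0.526 CPM (-1.24 ± 0.34, edgeR, adjusted p = 0.154). Npy was at 2.15 and 2.87 against 3.12 and 4.58 CPM (0.66 ± 0.28, edgeR, adjusted p = 0.355). Without C57J 1, that is within batch 2, the fold changes were -0.65 for Tac1, -0.44 for Pdyn, -1.504 for Tac2 and 0.48 for Npy on the log2 scale. Without C57J 2 they were -1.17, -1.26, -0.95 and 0.85, and Tac1 (edgeR, adjusted p = 0.00109) and Pdyn (edgeR, adjusted p = 0.00721) were then called. C57J is then 1 library of batch 1 against 2 of batch 2, so strain and batch cannot be told apart in those calls.

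**Figure D4:**
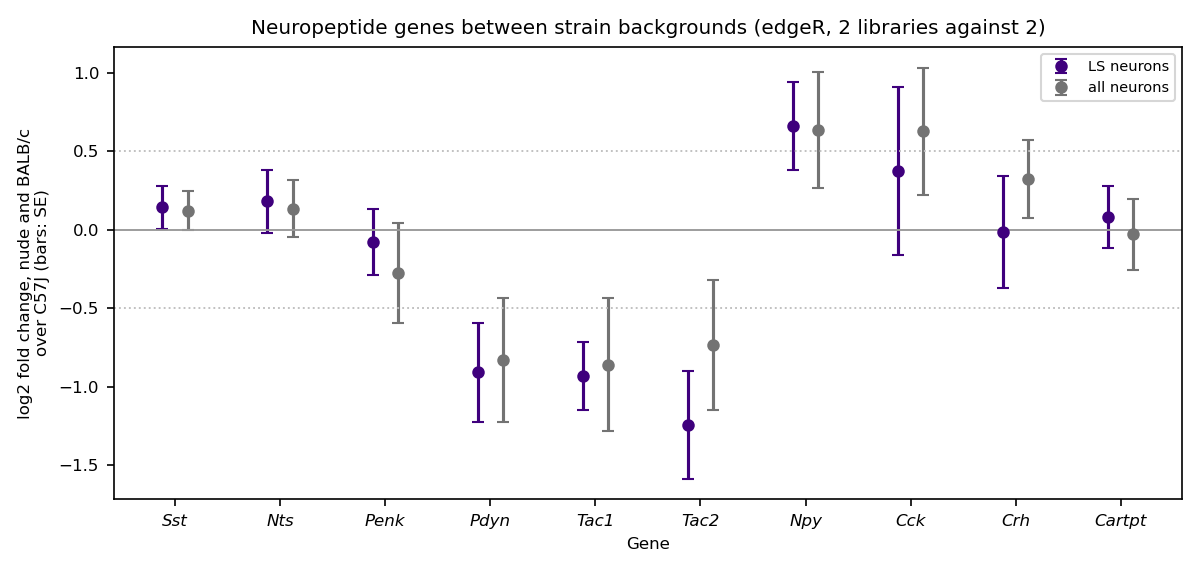
Log2 fold change of each gene between strain backgrounds in LS neurons and in all neurons (points; bars are standard errors from edgeR, 2 libraries against 2; dotted lines at -0.5 and 0.5). Sst, Nts, Penk and Cartpt lie within 0.3 of 0, and Tac1 (-0.93), Pdyn (-0.91) and Tac2 (-1.24) lie lowest in LS neurons.

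The oligodendrocyte values of Tac1 and Pdyn, read as free RNA, and some markers of other cells were also higher in both C57J libraries. In LS neurons the 3 Drd1 striatal markers summed to 38.7 and 40.3 CPM in C57J and to 31.7 and 29.7 CPM in nude and BALB/c, while the 5 general striatal markers summed to 572 and 512.5 against 570.5 and 675 CPM. The 5 oligodendrocyte markers summed to 429 and 426 against 292 and 269 CPM. Other lists were lower in both C57J libraries: OPC markers were at 584 and 605 against 698 and 677 CPM. Slc17a6 glutamatergic markers were at 333 and 342 against 403 and 445 CPM, and Lhx6 GABA markers at 1311 and 1414 against 1553 and 1498 CPM. Drd2 striatal markers overlapped, at 49.0 and 40.2 against 45.5 and 41.1 CPM. Oligodendrocytes had 0.0821, 0.0495, 0.0315 and 0.0424 Tac1 UMIs a nucleus in C57J 1, C57J 2, nude and BALB/c, and LS neurons had 0.104, 0.0613, 0.0369 and 0.0740. The oligodendrocyte value was thus 57.3% to 85.4% of that of LS neurons, and it was higher in both C57J libraries. Per nucleus, the LS value of Tac1 in BALB/c lay above that in C57J 2, unlike the level in CPM. Pdyn in oligodendrocytes was at 11.7, 5.03, 3.78 and 2.38 CPM in C57J 1, C57J 2, nude and BALB/c. Its UMIs per oligodendrocyte nucleus came to 79.2%, 58%, 53.2% and 40.4% of those per LS nucleus. LS neurons held only 185, 83, 72 and 95 Pdyn UMIs, and the counting error of these oligodendrocyte values was not measured. With the oligodendrocyte UMIs per nucleus subtracted, the log2 ratio of the mean levels in LS neurons went from -0.95 to -0.44 for Tac1 and from -0.92 to -0.03 for Pdyn. The same subtraction also raised the ratio of Sst (0.119 to 0.331), Nts (0.156 to 0.259) and Penk (-0.101 to 0.268). It raised that of Crh (-0.034 to 0.808) and Cartpt (0.051 to 0.615) as well, so the rise was not particular to Tac1 and Pdyn. For Tac2, Npy and Cck 1 library was at or below its oligodendrocyte value, so that no ratio was formed. The 3 types named striatal-like (N2, N8 and N25) were 8.93% and 5.38% of neurons in C57J against 2.98% and 4.47%. Among them, N2 was the highest type for Pdyn and the third for Tac1. N13, the highest type for Tac1, was 3.74% and 0.681% of neurons against 0.384% and 0.406%. N14, the fourth for Tac1, held 220 and 95 nuclei against 60 and 51. In all neurons, where these types are counted in, giving each neuron type the same weight in each library took the log2 ratio from -0.87 to -0.31 for Tac1 and from -0.84 to -0.27 for Pdyn. Within LS neurons, giving each LS cluster the same weight in each library took it from -0.95 to -1.002 for Tac1 and from -0.92 to -0.855 for Pdyn. The part of free RNA and of the striatal-like neurons in these differences was not tested.

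Within single types, 34 of 167 tests of the 10 genes in 43 types had an unadjusted p below 0.05 (edgeR). The share of all genes at that level was not counted in single types, so these counts have no background to be read against. Of the 167 tests, 1 was a call, where 0.800% of all tests across genes passed. It was Tac1 in LS6 Tafa1/Kynu, at 19.3 and 33.2 CPM in C57J 1 and C57J 2 and at 8.24 and 8.00 CPM in nude and BALB/c. The log2 fold change was -1.59 ± 0.32 (edgeR, adjusted p = 0.0451). Tac1 UMIs per LS6 nucleus were 0.169 and 0.248 against 0.0629 and 0.122, and the oligodendrocyte value came to 48.5%, 19.9%, 50% and 34.7% of them. Of 1214 LS6 nuclei, 9 had at least 5 Tac1 UMIs and held 32.6% of the Tac1 UMIs in LS6, so most of these UMIs lay in other nuclei. Of the 9, 2, 6, 0 and 1 were of C57J 1, C57J 2, nude and BALB/c. On all 4 libraries, the call was lost with DESeq2 (-1.60, adjusted p = 0.152). It was kept with other size factors (-1.58, edgeR, adjusted p = 0.0457) and without the filter on low counts (-1.58, edgeR, adjusted p = 5.71e-05). With 1 library left out, the log2 fold change shrank to -1.18 without C57J 2. It was -1.96 without C57J 1, that is within batch 2, -1.57 without nude and -1.60 without BALB/c. Over the 14 LS clusters in which Tac1 could be tested, its log2 fold change was negative in 13, with 6 at an unadjusted p below 0.05 (edgeR) and 1 called. These clusters come from the same 4 libraries and are not separate observations. Tac1 was above every glial class in every library in 2 LS clusters by UMIs per nucleus and in 0 by CPM. Sst could be tested in all 20 LS clusters and was lower in 9 and higher in 11, with 0 called and 1 at an unadjusted p below 0.05 (edgeR). Nts was lower in 10 of 18, Cartpt in 10 of 14 and Penk in 16 of 18, with 0 called for each. In LS neurons as a whole, the log2 fold change was -0.08 for Penk and 0.08 for Cartpt. A count of clusters to 1 side was thus also found for Penk, which showed little difference in LS neurons as a whole.

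**Figure D5:**
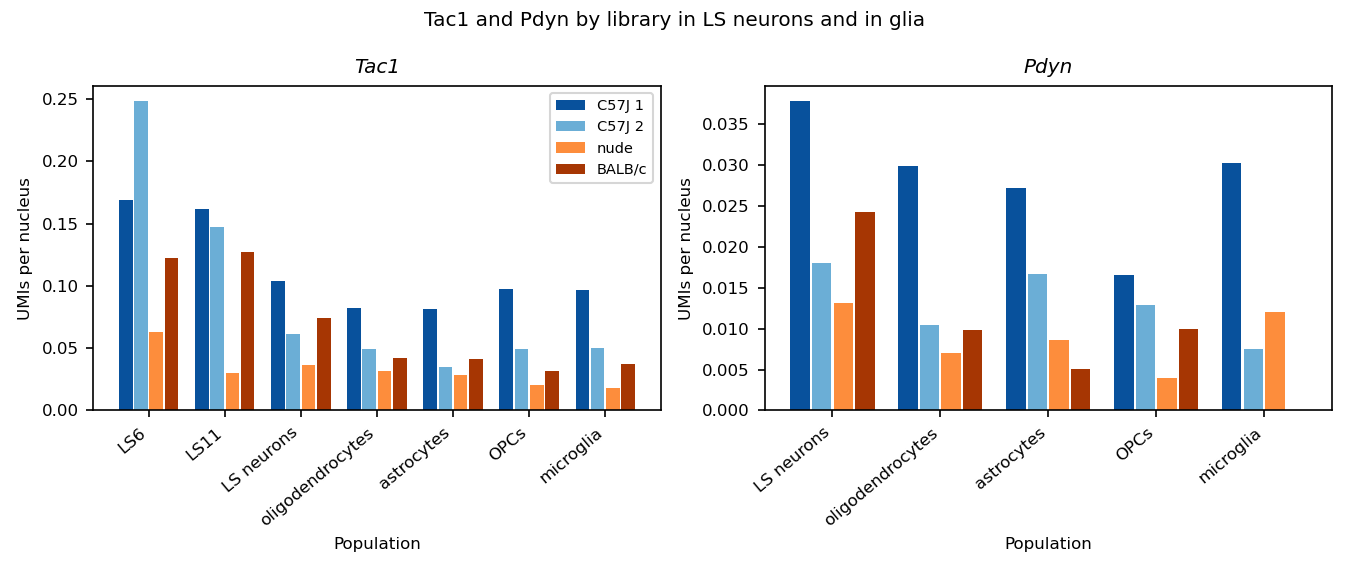
UMIs per nucleus of Tac1 (left) and Pdyn (right) in LS neurons and the 4 glial classes, and for Tac1 also in LS6 and LS11, with 1 bar per library. Tac1 in LS6 is 0.169 and 0.248 in C57J against 0.0629 and 0.122 in nude and BALB/c, and the glial bars are highest in C57J 1 for both genes.

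Nude and BALB/c mice share their background and differ in Foxn1, but with 1 library each there is no test, and intervals cover counting error only. In LS neurons, the ratio of nude to BALB/c was below 1 with its interval for 5 genes: Sst 0.905 (0.847 to 0.967), Nts 0.718 (0.667 to 0.774), Penk 0.746 (0.667 to 0.834), Npy 0.682 (0.543 to 0.851) and Cartpt 0.735 (0.641 to 0.841). For Pdyn, Tac1, Tac2, Cck and Crh the interval included 1. Between the 2 C57J libraries, which share strain and genotype, the same ratio excluded 1 for 6 genes, among them Sst at 1.23 (1.14 to 1.32), Nts at 1.28 (1.17 to 1.39) and Penk at 1.33 (1.183 to 1.501). An interval that excludes 1 was thus also found between libraries of the same label, which differ in batch. The intervals were formed for these peptide genes only, so the counts have no share of all genes to be read against.

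The receptors, processing enzymes and breakdown enzymes of these peptides were counted from lists. Of 20 receptor genes, 18 could be tested in LS neurons and 0 were called in either direction, with a median log2 fold change of 0.09 against -0.01 over all genes tested. Of 14 genes for processing and dense core vesicles 0 were called (median 0.11), and of 7 for peptide binding and breakdown 0 were called (median -0.17). Oprm1, the mu opioid receptor, was at 20.8 and 31.7 CPM in C57J and at 41.7 and 37.6 CPM in nude and BALB/c, with a log2 fold change of 0.63 (edgeR, adjusted p = 0.178). Ntsr2, the neurotensin receptor of astrocytes, was at 10.5 and 8.93 against 6.77 and 4.07 CPM (-0.83, edgeR, adjusted p = 0.213), and the astrocyte markers summed to 165, 167, 164 and 103 CPM in the same LS neurons, so their part in that value was not tested. Tacr1, the substance P receptor, was at 14.2 and 14.9 against 15.8 and 17.2 CPM (0.21, edgeR, adjusted p = 0.529).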

How the data were processed

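Nuclei from frozen, microdissected LS were sequenced on the 10x platform. Per the submitters' processing notes the reads were processed with Cell Ranger 7.0.1 on mm10, and the deposited values are raw UMI counts per gene and barcode. Whether intronic reads were counted is not given in the sources used here. From these counts, barcodes with over 200 and under 6000 genes, over 300 and under 50000 UMIs and under 2% mitochondrial UMIs were kept, as in the study, and doublets predicted from simulated pairs of nuclei were removed (9.66% to 11.9% a library). Nuclei were clustered with Leiden (leidenalg 0.10.2, resolution 1) on a graph that joined each nucleus to its 6 nearest neighbours in each library, without the 10 genes and their receptor and enzyme lists and without 77 genes that differed between strain backgrounds. Clusters were named from marker lists, and the limit of the LS score, 0.25, was set with the files in hand, without use of the 10 genes. Clusters that passed the score but had more markers of another class than of their own among their 10 leading genes were left out of LS neurons (175, 134, 175 and 133 nuclei, and 15, 27, 9 and 26 nuclei in C57J 1, C57J 2, nude and BALB/c). UMIs were summed per library and population and given as CPM, and tested with edgeR 4.0.16 (filterByExpr, TMM) or DESeq2 1.42.0 in R 4.3.3, and edgeR was tested on simulated data. Nuclei of 1 library come from 3 pooled mice, so p-values measure the spread between libraries, which may be technical. That spread includes batch between the C57J libraries and Foxn1 genotype between nude and BALB/c. Shares have exact (Clopper-Pearson) 95% intervals and the limit for 0 is 3 counts, and both cover counting error only. Neuron types, predicted doublets and names were rebuilt here and may differ from the study's. Endothelial-like, ependymal-like and neuroblast-like clusters were not used. The named genes were the 10 members and the lists, which were counted whatever their values. Members and lists were chosen with earlier results of these data known. Of the lists, values are printed for Oprm1, Ntsr2 and Tacr1 only. The 2 most alike of 5340 genes were found for each member and are printed for all but Tac2 and Cck.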

Additional observations from a re-analysis of the deposited data

How the results depend on the processing

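No paired analysis was possible because the groups compared share fewer than 2 replicate numbers in the labels. The counts of called genes moved by over 1.5 times under several alternatives. In all neurons they went from 352 to 755 with DESeq2, 881 without the filter on low counts and 166 with nuclei thinned to 1000 UMIs, and ran from 48 to 1153 when 1 library was left out. In LS neurons they went from 393 to 645, 951 and 167 in the same order, and ran from 68 to 1322 with 1 library left out. The lone library of an arm is then assumed to vary like the others. The lowest counts were those without BALB/c and the highest those without C57J 2. Without nude they were 73 and 182, and without C57J 1 498 and 754. The cause was not tested. Other size factors, adjusted p alone, doublets kept, stricter limits on nuclei and resolution 2 kept both counts within 1.5 times. With 1 library left out, some log2 fold changes changed sign, and not all of these were near 0 with all 4 libraries. Npy in all neurons was at 0.635 with all 4 libraries and at -0.010 without BALB/c. Cck in LS neurons was at 0.373 with all 4 libraries and at -0.201 without C57J 1. In all neurons Sst ran from -0.021 to 0.283, Nts from -0.075 to 0.340, Penk from -0.764 to 0.102, Npy from -0.010 to 1.083 and Cartpt from -0.352 to 0.247. In LS neurons Sst ran from -0.019 to 0.322, Nts from -0.085 to 0.416, Penk from -0.31 to 0.17, Cck from -0.20 to 1.19, Crh from -0.31 to 0.38 and Cartpt from -0.17 to 0.30. Crh in LS neurons also turned to 0.059 with doublets kept, 0.026 at resolution 2 and 0.025 with the clusters that hold another class's marker kept, and Cartpt to -0.057 in thinned nuclei. Tac1 in LS neurons was called with DESeq2 (-0.93, adjusted p = 0.00909) and without the filter (-0.92, edgeR, adjusted p = 0.00771), and Tac1 and Pdyn in all neurons without C57J 2 (-1.33 and -1.28), where strain and batch cannot be told apart. Subtracting the oligodendrocyte level in CPM left LS neurons below 0 in at least 1 library for every member, so it gave no value. Subtraction per nucleus, the equal weights over all neuron types, the repeats for Tac1 in LS6 and the kept clusters were chosen after seeing the data. Levels in each gene's highest type moved by less than 1 SD when averaged over nuclei. Shares of nuclei with a UMI rose with depth, and with 3 or 10 UMIs in place of 5 the Sst-rich neurons were 553 or 40 and the Nts-rich ones 559 or 74.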
